A study of Rattus norvegicus with 24 samples.

Results

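Itln1 and 9 genes of type 2 immunity were followed in the lungs of rats that had inhaled hexanal, an aldehyde found in indoor air. The 10 genes were Il33 and Tslp (epithelial alarm cytokines), Il1rl1 (the receptor of interleukin 33), Ccl11 and Ccl24 (eotaxins), Il4r (the shared receptor chain of interleukins 4 and 13), Itln1 and Clca1 (secreted epithelial proteins), and Retnla and Arg1 (genes of alternatively activated macrophages). They were listed by name with earlier results of these arrays known. Itln1 was selected by its measured level at 1500 ppm against the control group, so its differences from the control group are given below as a description with no test. A probe with a matching accession was found for 9 of the 10 genes, 11 probes of 30367 in all, and these 9 were among the 15443 gene symbols matched on the array. No probe was matched to Tslp, which was not analysed here. All 9 genes passed the filter on dim probes.

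The lungs came from 24 Fischer-344 rats, an inbred strain, aged 7 to 8 weeks at the start. The control group breathed filtered clean air, and the low-dose, middle-dose and high-dose groups breathed hexanal at 600, 1000 and 1500 ppm, 4 h a day on 5 days a week. Each of the 4 groups held 3 males and 3 females. The exposure lasted 5 weeks by the sample labels, while the study's methods give a shorter time, and the labels' protocol gives the same dose numbers in mg per cubic meter. Lung tissue was used, so fewer cells of a type and less RNA per cell cannot be told apart. A level below is the log2 signal of the gene's probe minus the 75th percentile of its own array, and levels are compared between rats and not between genes.

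In type 2 immunity, damaged or stimulated epithelium releases interleukin 33 and thymic stromal lymphopoietin, which act on innate lymphoid cells and T helper cells that make interleukins 4, 5 and 13. Interleukins 4 and 13 signal through Il4r and the transcription factor Stat6. Downstream, eotaxins draw eosinophils, airway epithelium turns on secretory genes, and macrophages take up the alternative program. Itln1 encodes a lectin that binds microbial sugars and is known in airway goblet cells, mesothelium and fat tissue.

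The promoters of 4 genes are shown here because Clca1 was the gene most like Itln1 across the rats. Ccl24 and Il1rl1 are shown because, of the listed genes with a promoter entry, only their windows held a Stat-type motif. Sequences are from RefSeq on the assembly GRCr8, from 250 bases before to 50 bases after the start, written 5′ to 3′. Capitals mark a motif. TTCNNNNGAA, the spacing preferred by Stat6, and TTCNNNGAA, the spacing of other Stat proteins, were searched on both strands. No motif overlapped another in these windows.
Itln1 (chr13:86480298-86480597, plus strand): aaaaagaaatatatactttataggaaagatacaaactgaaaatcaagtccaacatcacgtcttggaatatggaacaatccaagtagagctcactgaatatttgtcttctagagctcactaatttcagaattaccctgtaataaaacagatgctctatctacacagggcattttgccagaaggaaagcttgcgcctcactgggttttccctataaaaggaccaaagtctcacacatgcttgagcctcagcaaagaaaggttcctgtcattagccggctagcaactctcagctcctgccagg
Clca1 (chr2:236624665-236624964, minus strand): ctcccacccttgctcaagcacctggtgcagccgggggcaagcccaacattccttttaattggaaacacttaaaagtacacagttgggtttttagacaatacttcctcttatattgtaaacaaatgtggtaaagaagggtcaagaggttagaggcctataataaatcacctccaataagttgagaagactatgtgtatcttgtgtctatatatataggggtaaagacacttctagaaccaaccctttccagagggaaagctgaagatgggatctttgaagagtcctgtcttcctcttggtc
Ccl24 (chr12:26737173-26737472, plus strand): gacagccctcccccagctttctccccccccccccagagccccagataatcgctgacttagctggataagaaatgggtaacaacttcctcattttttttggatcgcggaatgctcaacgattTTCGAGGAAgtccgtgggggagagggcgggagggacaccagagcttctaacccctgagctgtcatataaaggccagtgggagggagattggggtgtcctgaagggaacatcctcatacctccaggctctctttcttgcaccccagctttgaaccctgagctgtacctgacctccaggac
Il1rl1 (chr9:50203388-50203687, plus strand): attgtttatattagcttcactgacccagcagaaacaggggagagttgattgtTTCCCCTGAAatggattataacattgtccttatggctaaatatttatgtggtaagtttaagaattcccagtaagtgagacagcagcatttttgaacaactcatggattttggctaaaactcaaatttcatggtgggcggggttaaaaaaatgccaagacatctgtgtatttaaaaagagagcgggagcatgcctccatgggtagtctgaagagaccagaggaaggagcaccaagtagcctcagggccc
These matches are descriptions and not binding sites. The match in Ccl24 began 129 bases before the start and had the shorter spacing, which 8.87% of 33469 promoter windows held. The match in Il1rl1 began 198 bases before the start and had the longer spacing, held by 7.28% of the windows. Neither spelling was in the Itln1 or Clca1 window. No promoter entry was found for Ccl11 or Arg1, so these genes were not searched.

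Lung markers were well above background on all 24 arrays, with Sftpc (surfactant protein C) between 7.35 and 8.11 and Scgb1a1 (club cell secretory protein) between 6.60 and 7.23. Of 6 eosinophil markers, Epx and Il5ra were well above background on 0 arrays, Prg3 on 1 and Ccr3 on 5, while Prg2 and Siglec5 were on 24. The arrays lay on 6 slides of 4, and each slide held a single sex, which means that slide and sex cannot be told apart. The control rats of each sex shared their slide only with 1 rat of the 600 ppm group, and the 1500 ppm rats of each sex only with 1 rat of the 1000 ppm group. A gene is called where limma gave a 1.5-fold or larger difference with an unadjusted p under 0.05. Of 21255 genes tested, 0.616% were called at 600 ppm, 1.64% at 1000 ppm and 1.22% at 1500 ppm against the control group, and Benjamini-Hochberg adjusted p-values were under 0.05 for 0, 4 and 1 of them. At an unadjusted p under 0.05 alone, 920, 1910 and 1481 genes passed. Of the 8 type 2 genes other than Itln1, 0 were called at 600 ppm, 2 at 1000 ppm (Ccl11 and Clca1, both higher) and 0 at 1500 ppm. The median log2 difference of these 8 genes was 0.06, 0.07 and -0.09 at the 3 doses, against -0.00, 0.00 and 0.01 over all genes tested. Within 1 sex, 3 rats against 3, the control and 1500 ppm males did not overlap in 3 of the 8 genes and in 25.8% of 21079 genes with a value in every rat, and the females in 0 of the 8 and in 21.4%. For 1000 ppm these were 4 and 14.7% in males and 0 and 19.1% in females, and for 600 ppm 0 and 8.9% in males and 1 and 18.2% in females.

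**Figure D1:**
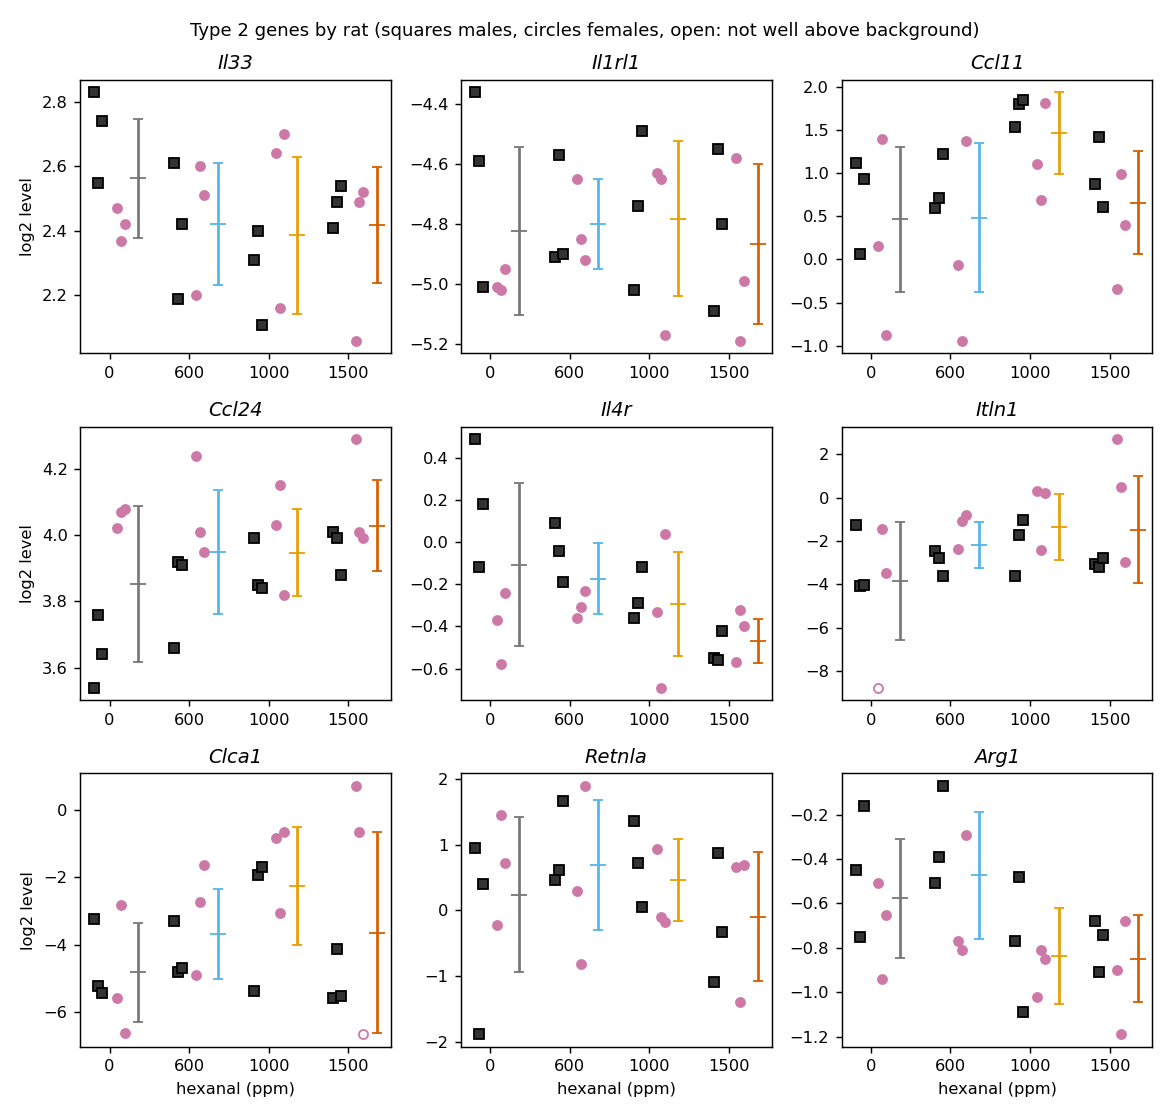
Levels of the 9 genes (log2 signal minus the 75th percentile of the array, y axis) by hexanal dose in ppm (x axis, 0 is the control group), 1 symbol a rat. Squares are males, circles are females, open symbols were not well above background, and the bars give the mean and SD of the 6 rats of a group. Itln1 spans -8.75 to 2.70 and Clca1 -6.66 to 0.70, while Il33 and Ccl24 stay within 2.06 to 2.83 and 3.54 to 4.29.

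Il33, the alarm cytokine, was not called at any dose. It was 2.83, 2.55 and 2.74 in the control males and 2.47, 2.37 and 2.42 in the control females. At 1500 ppm it was 2.41, 2.49 and 2.54 in males and 2.06, 2.49 and 2.52 in females. At 1000 ppm it was 2.31, 2.40 and 2.11 in males and 2.64, 2.16 and 2.70 in females. With both sexes together the groups overlapped at every dose, while the males at 1000 and at 1500 ppm all lay below the 3 control males. So did the 3 control females. Such a lack of overlap was found in 14.7% and 25.8% of all genes in males at 1000 and 1500 ppm. Between control females and control males it was found in 29.7%. Against control, the log2 differences were -0.14 (SE 0.12) at 600 ppm, -0.17 (SE 0.12) at 1000 ppm and -0.14 (SE 0.12) at 1500 ppm, and the last had a 95% interval of -0.38 to 0.10 (limma adjusted p = 0.838). Il1rl1, its receptor, had 2 probes, and the brighter was used. Its level ran from -5.02 to -4.36 in the control group and from -5.19 to -4.55 at 1500 ppm, and the difference was -0.04 (95% interval -0.33 to 0.24). Its second probe had group means of -5.12 in the control group and -5.04 at 1500 ppm.

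Ccl11, eotaxin 1, was highest in the middle-dose group. The control males had 1.12, 0.06 and 0.93 and the control females 0.16, 1.39 and -0.87. At 1000 ppm the males had 1.53, 1.80 and 1.85 and the females 1.11, 0.69 and 1.81. All 6 middle-dose rats were above the control median and 4 were above every control rat. At 600 ppm the mean was 0.48 ± 0.86 (SD, n = 6) and at 1500 ppm 0.66 ± 0.60 (SD, n = 6), both overlapping the control group at 0.47 ± 0.84 (SD, n = 6). Ccl11 rose 2-fold at 1000 ppm by the unadjusted rule, a log2 difference of 1.00 (SE 0.39, 95% interval 0.19 to 1.82), and the limma adjusted p was 0.515. Against the 600 ppm group, which uses no control rat, the difference was 0.98 (SE 0.39) and was called, with a limma adjusted p of 1. That call was lost with the slide as a fixed block (0.69), with array weights (0.79) and without 600 ppm rat 27 (0.70). In that comparison 0.63% of all genes and 1 of the 8 type 2 genes other than Itln1 were called, and 0 genes had an adjusted p under 0.05 (697 at an unadjusted p under 0.05).

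The call on Ccl11 at 1000 ppm against control was lost with the slide as a fixed block, at 0.49 (SE 0.72), with the slide as a random block, at 0.91, and without control rat 23, at 0.73. Within the slides that held 600 and 1000 ppm rats, the 1000 ppm rats were higher by 0.70 in males and by 0.68 in females, with 2 rats a dose each. Females had lower Ccl11 than males by a log2 difference of -0.58 (SE 0.25, limma adjusted p = 0.0973), just short of the 1.5-fold threshold, and it was called in 11 of 24 fits that left out a rat and in 3 of 10 other alternatives. Markers of other cells moved in the same group. Of 6 tested cardiac muscle markers 3 (Sln, Tnnt2 and Actc1) were called higher at 1000 ppm, and the log2 of the summed signal of the 6 ran from 1.49 to 5.09 (median 2.52) in the control group and from 2.89 to 6.88 (median 5.53) at 1000 ppm. Of 5 fibroblast markers, Pi16 was called higher, while the summed signal ran from 5.48 to 5.88 and from 5.71 to 6.24 in the same groups. Their part in the Ccl11 difference was not tested. The 5 genes whose levels were most like that of Ccl11 over the 24 arrays were Myl9 (r = 0.80), Serpinf1 (r = 0.76), Hoxd9 (r = 0.76), Sfrp2 (r = 0.75) and Cnn1 (r = 0.75), and Myl9 and Cnn1 encode smooth muscle proteins.

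Ccl24, eotaxin 2, was not called at any dose. The 6 control rats averaged 3.85 ± 0.24 (SD), and the groups at 600, 1000 and 1500 ppm averaged 3.95 ± 0.19, 3.95 ± 0.13 and 4.03 ± 0.14. The largest of these differences, 0.18 at 1500 ppm, had a 95% interval of -0.04 to 0.39. Ccl24 differed by sex. The 3 control females had 4.02, 4.07 and 4.08 and the 3 control males 3.54, 3.76 and 3.64, with no overlap, as in 29.7% of all genes. Over all doses the females were higher by 0.22 (SE 0.06, 1.17-fold, limma adjusted p = 0.00627), below the 1.5-fold threshold. An adjusted p under 0.05 between the sexes was found for 24.9% of all genes, and sex was tied to slide. Ccl26, eotaxin 3, was well above background on 0 of 24 arrays.

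Il4r lay below the control median in all 6 high-dose rats, and so did Arg1. The share of all genes with this pattern was not counted. The control males had 0.49, -0.12 and 0.18 and the high-dose males -0.55, -0.56 and -0.42, with no overlap, as in 25.8% of all genes. The control females had -0.37, -0.58 and -0.24 and the high-dose females -0.57, -0.32 and -0.40, which overlapped. The 3 control females also lay below the 3 control males with no overlap, as in 29.7% of all genes. In both sexes together the difference at 1500 ppm was -0.36 (SE 0.14, limma adjusted p = 0.637), under the 1.5-fold threshold. With the slide as a fixed block it was -0.68 (SE 0.21, limma adjusted p = 0.983) and was called. Within slides the 1500 ppm rats were lower than the single 1000 ppm rat beside them by a log2 difference of -0.39 in males and -0.47 in females. The difference of the 1500 ppm effect between the sexes was 0.66 on the log2 scale (SE 0.23, limma adjusted p = 0.0979), and Il4r was the 1 gene of the 8 called there, where 11.2% of all genes were called. With the slide as a fixed block this value was 0.02. It was no longer called without control rat 1 (0.51) or control rat 22 (0.57), after normexp background correction (0.56) or in the unscaled table (0.50). The second Il4r probe had means of -1.78 and -2.52 in control and high-dose males and of -2.34 and -2.24 in control and high-dose females.

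**Figure D2:**
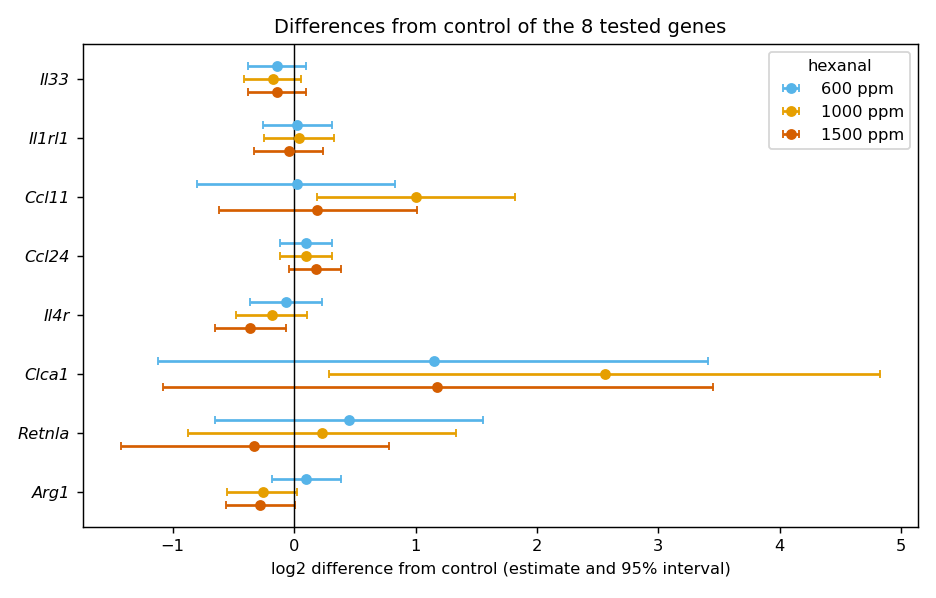
Log2 difference from the control group (x axis, estimate and 95% interval from limma) of the 8 type 2 genes other than Itln1 (y axis), with 1 color for each hexanal dose. The intervals of Ccl11 (0.19 to 1.82) and Clca1 (0.29 to 4.83) at 1000 ppm and of Il4r at 1500 ppm (-0.65 to -0.07) leave out 0.

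Itln1 and Clca1 varied widely between rats of the same group, with SDs of 1.06 to 2.71 and 1.33 to 2.98, while those of the other 7 genes lay between 0.10 and 1.18. Itln1 in the control group was -1.27, -4.05 and -4.04 in males and -8.75, -1.43 and -3.47 in females, and rat 21, at -8.75, was not well above background. At 600 ppm the males had -2.45, -2.79 and -3.62 and the females -2.37, -1.07 and -0.82. At 1000 ppm the males had -3.59, -1.71 and -1.03 and the females 0.32, -2.43 and 0.20. At 1500 ppm the males had -3.06, -3.20 and -2.79 and the females 2.70, 0.51 and -2.98. The groups overlapped at every dose, and 2, 3 and 2 exposed rats were above every control rat at 600, 1000 and 1500 ppm. The mean differences from the control group were 1.65, 2.46 and 2.36 on the log2 scale (SE 1.13 each). Without control rat 21 they were 0.66, 1.48 and 1.38 (SE 0.98 each), more than 1.5 times smaller. These values chose the gene and have no test. The high-dose mean was no higher than the middle-dose mean, and only females 36 and 37 of the high-dose group lay above every control rat.

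Over all doses Itln1 was higher in females by 1.17 (SE 0.78), or by 1.75 without control rat 21. The 1500 ppm difference of Itln1 was larger in females than in males by 4.52 (SE 2.12), or by 2.42 without control rat 21. Both comparisons include the control and 1500 ppm rats whose levels chose the gene, so neither has a test. Of the other 8 type 2 genes 0 were called between the sexes, where 3.93% of all genes were called. Markers of other tissues and cells had values of either sign in the 1500 ppm effect between the sexes. The median was -0.38 for 3 tested cartilage genes, 0 of them larger in females. It was -0.31 for 7 tested mast cell markers, 1 of them larger in females. The 4 tested mesothelial markers were all larger in females (median 0.51, 0 called). Of 7 tested fat cell markers 5 were larger in females (median 0.80), with Fabp4 called higher and Lep lower. The 3 tested ciliated cell genes were all larger in females (median 0.56), with Foxj1 called. Of 5 tested macrophage markers 2 were called higher and 2 lower (median 0.32). Of all genes, 11.2% were called in this comparison. The 6 tested cardiac muscle markers were all larger in females, with a median of 5.26, and Myl7 and Sln were called. The log2 of their summed signal ran from 1.49 to 2.72 in control females and from 1.95 to 6.93 in high-dose females, while in males it reached 5.09 in the control group (median 4.39) and 4.43 at 1500 ppm (median 1.73). The 4 tested large airway secretory genes, listed after the values were seen, had a median of 2.62 with 3 larger in females, and 0 were called. Their summed signal ran from -1.38 to 1.99 in control females and from -0.66 to 6.63 in high-dose females, against -0.98 to 3.05 and -0.64 to 2.67 in males. The part of these markers in the Itln1, Clca1 and Retn values was not tested. Between 1000 and 600 ppm Itln1 differed by 0.82 (SE 1.13, limma adjusted p = 1), with a 95% interval of -1.53 to 3.16.

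Clca1, a secreted regulator of chloride channels that marks goblet cells, was the other widely varying gene. The control males had -3.25, -5.22 and -5.44 and the control females -5.59, -2.83 and -6.62. At 1000 ppm the males had -5.39, -1.93 and -1.71 and the females -0.84, -3.06 and -0.67. At 1500 ppm the males had -5.58, -4.12 and -5.52 and the females 0.70, -0.68 and -6.66, and rat 38, at -6.66, was not well above background. Of 6 middle-dose rats 5 were above the control median, 4 were above every control rat, and rat 11 was near the low end. Clca1 rose 5.89-fold at 1000 ppm by the unadjusted rule, a log2 difference of 2.56 (SE 1.09, 95% interval 0.29 to 4.83, limma adjusted p = 0.515). At 600 and 1500 ppm the differences were 1.15 (SE 1.09) and 1.18 (SE 1.09), neither called. The call at 1000 ppm was lost with the slide as a fixed block (1.39), as a random block (2.39), after normexp correction (1.65), and without control rat 21 (2.40) or 23 (2.20) or middle-dose rat 31 (2.27) or 33 (2.24). With the slide as a fixed block the difference at 1500 ppm turned to -1.07. The 1500 ppm effect was larger in females by 3.24 (SE 2.13, limma adjusted p = 0.42), which was not called, and by 5.47 without high-dose rat 38 (limma adjusted p = 0.0665), which was called. With the slide as a fixed block it was -0.22.

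**Figure D3:**
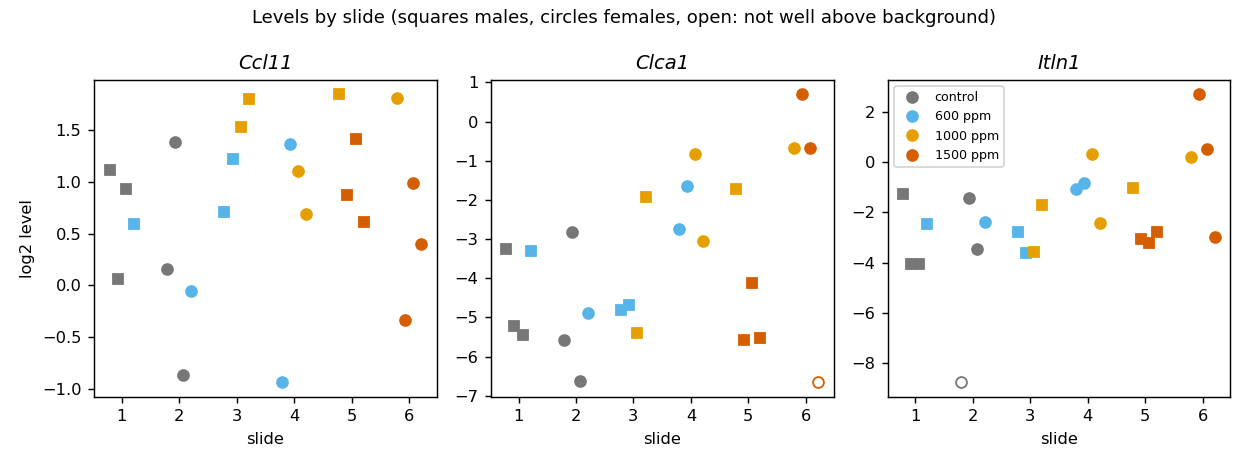
Levels of Ccl11, Clca1 and Itln1 (log2, y axis) by slide (x axis, 4 arrays each), colored by hexanal dose, with squares for males, circles for females and open symbols where not well above background. On slides 5 and 6 the single 1000 ppm rat has a Ccl11 level of 1.85 and 1.81, above the 1500 ppm rats beside it.

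Over the 24 arrays, Clca1 was the gene most like Itln1 of 12411 named genes by Pearson's r (r = 0.81, rho = 0.87). This pairing was noticed after the values were seen, and the arrays share slides and sex, so no p is given. With the group means removed r was 0.80. It was 0.84 in the 12 males and 0.80 in the 12 females, 0.91 without control rat 21, and 0.90 without the rats farthest from the Itln1 median, 21 and 36. Without the rats farthest from the Clca1 median, 33 and 36, it was 0.74. The likeness was not mutual in rank, since Itln1 was number 82 among the genes most like Clca1, behind Scin (r = 0.92), Enpp3 (r = 0.89), Klhl41 (r = 0.89) and Scgb3a1 (r = 0.89), and number 58 with the group means removed. For Itln1, the next 5 named genes that are not on the list were Cntnap1 (r = 0.79), Pitx1 (r = 0.78), Nkx2-5 (r = 0.76), Dnah1 (r = 0.76) and Cfi (r = 0.75).

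**Figure D4:**
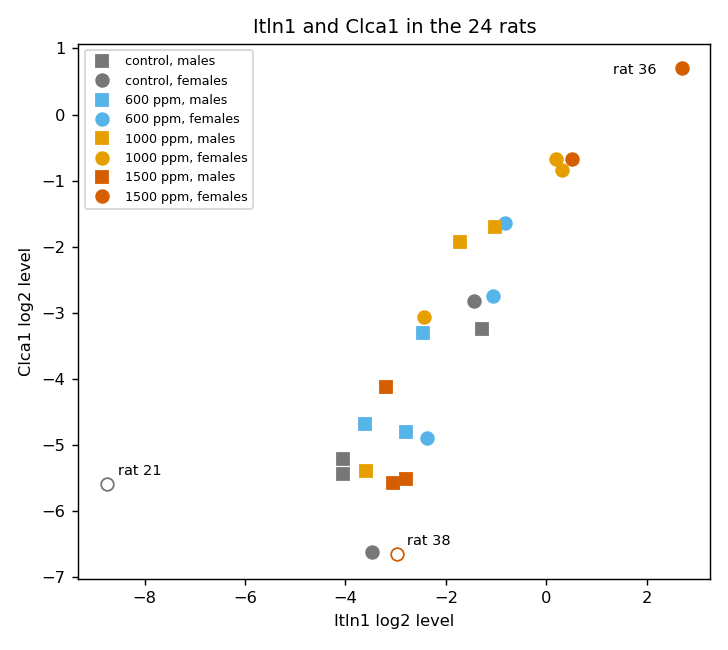
Level of Clca1 (log2, y axis) against that of Itln1 (log2, x axis) in the 24 rats, colored by hexanal dose, with squares for males, circles for females and open symbols where either gene was not well above background. Rat 36 (1500 ppm) is highest in both genes, rat 38 (1500 ppm) is lowest in Clca1 and rat 21 (control) lowest in Itln1.

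Genes of the larger airways varied with this pair. They were picked for this after the values were seen and are given as a description. Cardiac muscle markers also rose at 1000 ppm against control (median log2 difference 3.08 of 6 tested, 3 called). The r of the cardiac muscle markers with this pair was not examined. Of 5 large airway secretory genes 4 were tested, and 2 of them, Scgb3a1 and Bpifb1, were called higher at 1000 ppm against control (median log2 difference of the 4 genes 2.67). The untested gene, Ltf, was well above background on 6 arrays, did not pass the filter and ran the other way. Its mean was -5.54 (SD 2.33) in the control group and -7.54, -7.58 and -7.87 at 600, 1000 and 1500 ppm. Scgb3a1 had r = 0.89 with Clca1 and 0.62 with Itln1, Bpifb1 0.88 and 0.68, and Bpifa1 0.86 and 0.70, while Krt5, a basal cell keratin, had -0.06 and -0.11. The log2 of their summed signal ran from -1.38 to 3.05 (median 1.22) in the control group, from 1.24 to 5.90 (median 4.36) at 1000 ppm and from -0.66 to 6.63 (median 1.69) at 1500 ppm. Of 3 tested ciliated cell genes, Foxj1 had r = 0.81 with Clca1 and 0.64 with Itln1, Dnai1 0.70 and 0.54, and Tekt1 0.58 and 0.44. The 3 tested cartilage genes had r between -0.23 and 0.21 with Clca1. Of 7 tested fat cell markers, 3 had a positive r with Clca1 and with Itln1, namely Adipoq (0.79 and 0.67), Cfd (0.41 and 0.49) and Fabp4 (0.38 and 0.31), while Lep, Cidec, Lpl and Pnpla2 ran from -0.28 to -0.15 with Clca1 and from -0.22 to -0.05 with Itln1. Adipoq, the fat cell hormone adiponectin, was called higher at 1000 ppm together with 0 of the other 6 tested fat cell markers. Of 4 tested mesothelial markers 0 were called at any dose against control. The part of these cells in the Itln1 and Clca1 differences was not tested.

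Of 5 tested goblet cell markers, Agr2 and Foxa3 were called higher at 1000 ppm and 0 at the other doses. Agr2, a chaperone for mucins, had a mean of -1.72 ± 0.99 (SD, n = 6) in the control group and -0.33 ± 0.57 at 1000 ppm, a log2 difference of 1.39 (SE 0.45, limma adjusted p = 0.515), and its r with Clca1 was 0.85. Foxa3, a goblet cell transcription factor, was well above background on 13 of 24 arrays and differed by 0.71 (SE 0.33). Spdef, which acts upstream of goblet cell genes, had 0.07 ± 0.09 in control rats and 0.15 ± 0.19 at 1000 ppm. Tff2 did not pass the filter, and no probe was matched to Muc5ac or Muc5b.

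Retnla, also called Fizz1, did not differ beyond the spread of the rats. Control rats ran from -1.89 to 1.46, with -0.81 to 1.90 at 600 ppm, -0.18 to 1.36 at 1000 ppm and -1.39 to 0.88 at 1500 ppm. The difference at 1500 ppm was -0.33 (SE 0.53, 95% interval -1.43 to 0.78). Arg1, arginase 1, was -0.45, -0.75 and -0.16 in control males and -0.51, -0.94 and -0.65 in control females. At 600 ppm it was -0.51, -0.39 and -0.07 in males and -0.77, -0.81 and -0.29 in females. At 1000 ppm it was -0.77, -0.48 and -1.09 in males and -1.02, -0.81 and -0.85 in females, 4 of them below every 600 ppm rat. At 1500 ppm Arg1 was not called, though all 6 rats lay below the control median and 1 lay below every control rat. The 1500 ppm means were -0.78 in males and -0.93 in females, against -0.45 and -0.70 in the control group. The difference between 1000 and 600 ppm was -0.36 (SE 0.14, limma adjusted p = 1), 1.29-fold lower and not called. Of the macrophage markers, 5 were tested and 0 were called at any dose against control.

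Among relatives of these genes, Retn, which encodes resistin, was called at 1000 and 1500 ppm. The control rats lay between -5.64 and -4.72. At 1000 ppm the males had -4.52, -4.57 and -0.68 and the females -4.16, -2.79 and -3.18, a difference of 1.66 (SE 0.74, limma adjusted p = 0.528). At 1500 ppm the females had -1.52, -0.66 and -1.49 and the males -4.82, -4.72 and -4.95. The 3 high-dose females were above every control rat, and the high-dose males overlapped the control rats. Between high-dose and control females a lack of overlap was found in 21.4% of 21079 genes. The difference at 1500 ppm was 1.95 (SE 0.74, limma adjusted p = 0.608), and that between the sexes in the 1500 ppm effect was 3.15 (95% interval 0.83 to 5.46, limma adjusted p = 0.107). The 3 high-dose females shared slide 6 with 1 female of 1000 ppm and were higher than that rat by 1.96, while on slide 5 the high-dose males were lower than the 1000 ppm male by a log2 difference of -4.15. Between 600 ppm and control rats of 1 slide the difference was 1.32 in males and -1.33 in females. With the slide as a fixed block the differences from control were 0.93 at 1000 ppm and -0.17 at 1500 ppm, neither called. Both calls were also lost with normexp (0.73 at 1000 ppm), with the slide as a random block (1.67 at 1000 ppm) and with array weights (1.31 and 0.98). The call at 1000 ppm was lost without control rat 1 (1.65) or 3 (1.53) or middle-dose rat 13 (1.13), 32 (1.56) or 33 (1.63). That at 1500 ppm was lost without rat 37 (1.48). The difference between the sexes in the 1500 ppm effect was called, where 11.2% of all genes were. It stayed called with the slide as a fixed (3.21) or random block (3.15) and was lost with normexp (1.52). Retn was also called between 1000 and 600 ppm (1.64) and higher in females than in males (1.03). The former call was lost with the slide as a fixed block (0.93), the latter with a random block (1.03). The r of Retn was 0.74 with Adipoq, 0.60 with Cfd, 0.51 with Fabp4, 0.46 with Cidec and 0.17 with Lep. It was -0.17 with Lpl and -0.32 with Pnpla2. Of these 7 fat cell markers Cfd alone was called at 1500 ppm. Their summed signal ran from 2.54 to 3.15 in the control group and 2.53 to 3.59 at 1500 ppm. Its median was 2.56 in control females and 3.10 in high-dose females, with overlap, and 2.82 and 2.72 in males. The brighter markers, such as Pnpla2 (mean 1.81 in the control group), dominate this sum, and Adipoq (-6.68) adds little to it. Clca2 was called lower at 1500 ppm, by -0.68 (SE 0.21, limma adjusted p = 0.461). Retnlg, Arg2, Il18r1 and Clca4 were called at 0 doses, and Retnlb was well above background on 7 of 24 arrays and not tested.

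Of 45 other genes of the type 2 pathway, 40 had a matched probe and 27 passed the filter. Of these 27, 0 were called at 600 ppm, 4 higher and 0 lower at 1000 ppm, 1 higher and 0 lower at 1500 ppm, and 0 between 1000 and 600 ppm. Of all genes, 0.616%, 1.64%, 1.22% and 0.63% were called in the same comparisons. Their median log2 difference was 0.02, -0.01 and 0.02 at the 3 doses. The effector cytokines Il4, Il5, Il9 and Il13 were well above background on 4, 3, 1 and 8 of 24 arrays and did not pass the filter. Il25, a further epithelial alarm cytokine, differed by 0.81 (SE 0.33, limma adjusted p = 0.515) at 1000 ppm and was well above background on 17 arrays. Of 8 tested receptors, 5 signalling genes and 3 chemokines, 0 were called at any dose. Stat6, the transcription factor of the pathway, had -0.92 ± 0.27 (SD, n = 6) in control rats and -1.05 ± 0.31 at 1500 ppm.

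Chia, acidic chitinase, was the pathway gene called at both upper doses. The 6 control rats averaged 3.48 ± 0.27 (SD), and the groups at 600, 1000 and 1500 ppm averaged 3.94 ± 0.44, 4.44 ± 0.35 and 4.10 ± 0.18. The differences were 0.47, 0.96 and 0.62 (SE 0.18 each), with limma adjusted p-values of 0.997, 0.116 and 0.427. Chitinase genes have near-identical copies in rodents, and cross-hybridization was not tested. Between the sexes Foxa3 (0.68, adjusted p = 0.0128) and Fcer2, the low-affinity IgE receptor (0.89, adjusted p = 0.00891, fitted without 1 male of 1000 ppm whose spot was an outlier), were called higher in females by limma, and Alox15, a lipoxygenase (-0.66, adjusted p = 0.00315), and Areg, amphiregulin (-0.76, adjusted p = 0.0683), lower. These were 4 of the 27 pathway genes, where 3.93% of all genes were called. In the 1500 ppm effect between the sexes 4 of the 27 were called, where 11.2% of all genes were, a share near that background. Socs1, an inhibitor of cytokine signalling (0.96, adjusted p = 0.0162), and Il7r (0.83, adjusted p = 0.182) were called higher in females by limma, and Gata3, the T helper 2 transcription factor (-1.42, adjusted p = 0.003), and Mrc1, the mannose receptor (-0.62, adjusted p = 0.201), lower.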

How the data were processed

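Lung RNA of 24 rats was hybridized singly, labeled with Cy3, to Agilent rat arrays. The deposited intensities are spot signals that the authors extracted with Feature Extraction 11.5.1.1, with the background subtracted and no scaling from array to array. The deposited series table matched the scanner signals within a relative 0.001 for 100% of the probes with a single spot. The 75th percentile of the signal ran from 1701 to 3133 per array, 70.7 to 81.8% of probes were well above background, and 0 spots were saturated. The number of arrays limits the precision.

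Outlier spots were left out, spots of a probe were averaged, and log2 signals were set relative to the array's 75th percentile. Of 30367 probes 18355 (60.4%) were named by accession through a RefSeq gene table of GRCr8. A probe entered the tests if 5 or more arrays of some group had it well above background, and each gene was represented by its brightest probe. R 4.3.3 and limma 3.58.1 (lmFit, eBayes) were fitted on all 24 arrays, with p-values adjusted by Benjamini-Hochberg over 21255 genes. Sexes were compared with dose as a covariate, and the 1500 ppm effect between the sexes by an interaction of 8 groups. Samples were grouped by their labels. Alternatives were normexp, quantile and median scaling, the unscaled table, 2 other filters, the methods' t-test, fits on only the groups compared, sex as a covariate, slide blocks, array weights, means over probes, and leaving out each rat.

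The members and gene lists were chosen with earlier results of these data known. All members, called pathway genes, relatives, the 5 genes most like Itln1, and markers that moved with a member were named. The fits were tested on simulated data.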

Additional observations from a re-analysis of the deposited data

Results flagged for a closer look

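Of 36 groups of 6 rats examined, 9 genes at 4 doses, 3 had a rat far from the other 5, and chance alone gives about 1 in 20. Control rat 21 had the lowest Itln1 level of its group, with a gap of 0.629 of the range. Rat 36 of the 1500 ppm group had the highest Ccl24 level (a gap of 0.677 of the range) and the lowest Il33 level (0.733). The 1500 ppm effect on Il4r differed between the sexes by 0.66 on the log2 scale (limma adjusted p = 0.0979).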

How the results depend on the processing

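No paired analysis was possible because the groups share no rat numbers. The number of genes called at 600 ppm (131) was 36 with normexp, 587 with no filter, 50 with the filter on all arrays, 87 by the methods' t-test, 227 with the slide as a fixed block, 315 with array weights and 129 to 215 without each rat in turn. At 1000 ppm (348) it was 569 in the unscaled table, 562 with no filter, 225 with the filter on all arrays and 220 to 507 without each rat. At 1500 ppm (260) it was 104 with normexp, 479 with no filter, 151 with the filter on all arrays, 405 and 140 with the slide as a fixed and a random block. Between 1000 and 600 ppm (134) it was 13 with normexp, 624 with no filter, 52 with the filter on all arrays and 104 to 269 without each rat. Between the sexes (836) it was 1402 with no filter and 448 with the filter on all arrays. For the 1500 ppm effect between the sexes (2391) it was 1398 with normexp and 3927 with the slide as a fixed block.

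The direction of calls moved with the scaling, the filter and the slide block. At 1000 ppm 275 were higher and 73 lower, against 73 and 329 with normexp, 539 and 30 in the unscaled table, 379 and 183 with no filter, 194 and 134 with the slide as a fixed block and 334 and 155 with array weights. At 1500 ppm the split was 149 and 111, against 27 and 77 with normexp, 126 and 133 with quantile normalization, 102 and 160 unscaled, 321 and 158 with no filter and 106 and 146 with array weights. At 600 ppm it was 34 and 97, against 51 and 76 with quantile normalization, 76 and 64 unscaled, 377 and 210 with no filter, 22 and 28 with the filter on all arrays and 119 and 108 with the slide as a fixed block. Between 1000 and 600 ppm it was 121 and 13, against 7 and 6 with normexp, 73 and 31 with quantile normalization, 211 and 413 with no filter and 150 and 51 with the slide as a fixed block. Between the sexes it was 664 and 172, against 599 and 63 with normexp, 316 and 274 with quantile normalization, 491 and 228 with median scaling and 246 and 466 unscaled. For the 1500 ppm effect between the sexes it was 626 and 1765, against 278 and 2684 unscaled and 2428 and 1499 with the slide as a fixed block. The median of all genes moved to -0.128 (1000 ppm), 0.103 (sexes) and -0.177 (1500 ppm effect between sexes) with normexp and to 0.109, -0.140 and -0.169 unscaled.

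Of the type 2 genes, 2 were called at 1000 ppm, against 1 with normexp or the filter on all arrays, where Itln1 and Clca1 were not tested, 0 with either slide block and 0 to 2 without each rat. At 1500 ppm 0 were called, against 1 with the slide as a fixed block, Il4r at -0.68. Between 1000 and 600 ppm 1 was called, against 0 with the slide as a fixed block or array weights and 0 to 1 without each rat (0 without rat 27). Between the sexes 0 were called, against 2 with normexp, 1 with median scaling, unscaled or with array weights, and 0 to 2 without each rat. For the 1500 ppm effect between the sexes 1 was called, Il4r, against 0 with normexp or unscaled and 0 to 2 without each rat. With the slide as a fixed block 2 were called, neither of them Il4r.

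Differences that were not called also turned direction. With the slide as a fixed block these were Ccl11 at 600 (-0.20) and 1500 ppm (-0.69), Arg1 at 600 ppm (-0.06), Il1rl1 (0.06) and Clca1 (-1.07) at 1500 ppm, Ccl24 between 1000 and 600 ppm (0.06), and in the 1500 ppm effect between the sexes Ccl24 (0.42), Il33 (-1.04), Arg1 (-0.38) and Clca1 (-0.22). With a random block they were Ccl11 at 600 ppm (-0.01) and Ccl24 between 1000 and 600 ppm (0.01). With normexp they were Il1rl1 at 600 ppm (-0.24), 1000 ppm (-0.47), between these doses (-0.23), between the sexes (0.24) and in the 1500 ppm effect between them (-0.48), Ccl24 between 1000 and 600 ppm (0.02) and Ccl11 in the 1500 ppm effect between the sexes (0.11). With array weights they were Il4r at 600 ppm (0.05), Il1rl1 at 1500 ppm (0.03), Ccl24 between 1000 and 600 ppm (0.03), Retnla between the sexes (-0.07) and Ccl11 in the 1500 ppm effect between them (0.17). With the mean over probes they were Il1rl1 at 600 (-0.18) and 1500 ppm (0.02) and in the 1500 ppm effect between the sexes (-0.06). With quantile normalization they were Ccl24 (0.01) and Il1rl1 (-0.03) between 1000 and 600 ppm, and with median scaling Il1rl1 in the same comparison (-0.00) and Retnla between the sexes (-0.04). Unscaled they were Il4r at 600 ppm (0.00), Ccl24 between 1000 and 600 ppm (0.03), Retnla between the sexes (-0.16) and Arg1 in the 1500 ppm effect between them (-0.06). Without each rat in turn, values of both signs ran from -0.25 to 0.30 (Ccl11), -0.02 to 0.12 (Il1rl1) and -0.16 to 0.05 (Il4r) at 600 ppm, from -0.02 to 0.13 (Il1rl1) and -0.20 to 0.48 (Retnla) at 1000 ppm, and from -0.08 to 0.39 (Ccl11) and -0.11 to 0.05 (Il1rl1) at 1500 ppm. Between 1000 and 600 ppm they ran from -0.06 to 0.06 (Ccl24), -0.10 to 0.02 (Il33), -0.04 to 0.09 (Il1rl1) and -0.52 to 0.02 (Retnla), between the sexes from -0.21 to 0.17 (Retnla), and in the 1500 ppm effect between them from -0.69 to 0.44 (Ccl11), -1.23 to 0.20 (Retnla) and -0.05 to 0.25 (Arg1). The cause of these changes was not tested. A block by sex and slide together could not be fitted between the sexes, since each slide holds 1 sex.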
